A study of Homo sapiens with 12 samples.

Results

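The change of the Ota effect with time was measured in HK-2, an immortalized human cell line from the renal proximal tubule epithelium. It is the Ota effect at 72 h (Ota minus control) minus the Ota effect at 24 h, called the interaction below. It takes in all 12 Affymetrix arrays of the series: 3 of cells given a high dose of Ota for 24 h, 3 of cells given Ota for 72 h, and 3 of cells given the control vehicle for each of these times. The labels do not spell out Ota or give its amount. All cells grew in the same medium, whose listed supplements include insulin, hydrocortisone and EGF, and were close to confluent when treatment began. Each group's 3 arrays are labelled as biological replicates with no further detail, so a p-value here reflects only how these samples varied, which may be technical. The series was made to look for expression signatures of kidney toxicity.

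Cells of the proximal tubule recover most of the filtered solute from the forming urine and are a frequent target of toxic compounds. A cultured cell that is damaged can stop dividing, slow its protein synthesis and switch on stress programmes. One of these is the integrated stress response, in which the transcription factor ATF4 raises genes of amino acid supply. Another is the unfolded protein response, which raises chaperones of the endoplasmic reticulum. Values of the control cells of each time are given beside those of the treated cells throughout.

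Values are log2 GCRMA signals of 1 probe set per gene, and a difference of 1 is a factor of 2. A gene was called where limma's Benjamini-Hochberg adjusted p over the 10729 tested genes was under 0.05. A higher interaction means that Ota minus control was greater at 72 h than at 24 h, which includes a fall that had become smaller. The median standard error of an interaction was 0.30. Errors of differences are SE and errors of group means are SD (n = 3). The arrays hold RNA of whole cultures, so fewer cells of a kind and less RNA per cell cannot be told apart.

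Array-wide measures differed between the groups. The median of the tested genes was 7.97 on control and 7.40 on Ota arrays at 24 h, and 7.96 and 7.68 at 72 h, so its own interaction was 0.28. Poly-A spike-ins, which are bacterial RNAs usually put into the sample ahead of labelling, were brighter on Ota arrays by 1.85 at 24 h and by 0.89 at 72 h, an interaction of -0.96. Hybridization controls, added after labelling, were brighter by 0.93 and 0.42. The 3' minus 5' difference between the ACTB control probe sets, which grows as RNA breaks down, was 1.18, 1.23 and 1.39 in control 24 h, Ota 24 h and control 72 h arrays and 1.97 in Ota 72 h arrays. The same difference for GAPDH did not show this rise, at -0.057, -0.026, -0.056 and -0.023 in that order (interaction 0.0019). The part of these array-wide measures in the results was not tested. Within groups, arrays correlated at 0.954 to 0.994 over the tested genes. Of 18 proximal tubule markers, 4 passed the filter on low values, and LRP2, CUBN, SLC34A1, AQP1 and ANPEP were not among them. Of these 4, SLC3A1 (-2.10), SLC4A4 (-1.30) and DPP4 (-1.14) had a lower interaction and PAX8 (0.95, limma adjusted p = 0.18) did not pass. Of 7 fibroblast markers 3 were measured: COL1A1 (2.49) and LUM (0.86) had a higher interaction and DCN (0.15, limma adjusted p = 0.84) did not pass. Of 8 distal tubule and collecting duct markers 2 were measured: SCNN1A (-0.80) had a lower interaction and AQP3 (0.93, limma adjusted p = 0.052) did not pass. None of the 3 measured of 6 podocyte markers was called, and none of 7 endothelial or 7 leukocyte markers passed the filter. The part of these markers in the results was not tested.

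The Ota effect changed with time in 5313 of 10729 genes (limma, 49.5% of those tested). It was higher at 72 h for 3178 genes (29.6%) and lower for 2135 (19.9%), with a median interaction of 0.17 over all genes. Of these calls 4058 had a size of at least 1 on the log2 scale and 1410 of at least 2, the latter split into 916 higher and 494 lower. The split of all calls followed the scaling of the arrays. Higher interactions made up 59.8% as deposited, 52.6% after quantile normalization, 46.9% with each array centred on its median, and 91.9% of 6432 calls with each array scaled to its poly-A spike-ins. The median over all genes was 0.17, 0.01, -0.11 and 1.13 in the same order. Directions below are those of the deposited values. Genes picked by the naming rule whose interaction call ended, and lists whose balance turned, under another scaling are noted where they are described. Markers, and genes shown for a promoter motif alone, carry no such note. The spike-in scaling lowers every Ota effect by 1.85 at 24 h and by 0.89 at 72 h. It thus takes the spike-ins' interaction of -0.96 off every gene, so lower interactions near that size come close to 0 or pass it.

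**Figure D1:**
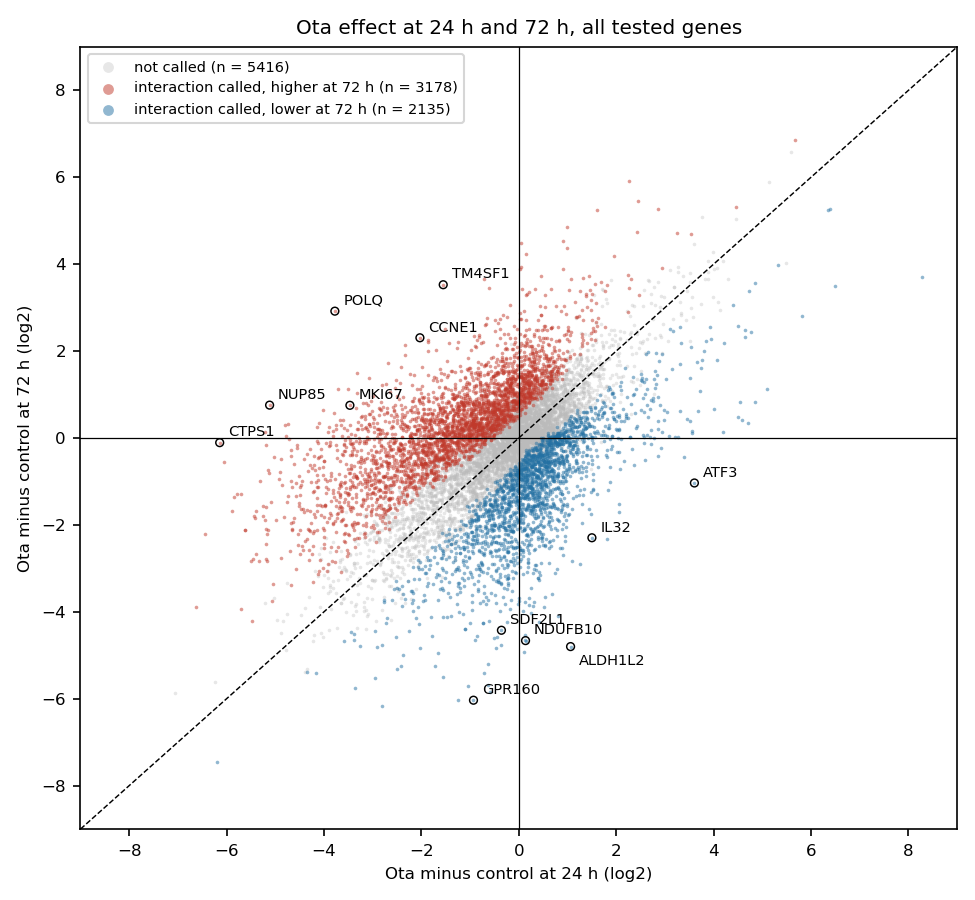
Ota minus control (log2) at 24 h on the horizontal and at 72 h on the vertical axis, 1 point per tested gene; the dashed diagonal marks equal effects. The 3178 genes with a called higher interaction (red) lie above the diagonal and the 2135 with a lower one (blue) below it, and POLQ, CCNE1 and TM4SF1 lie at the upper left, lower at 24 h and higher at 72 h.

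As deposited, most of the called genes had an effect at one time that was not called at the other. At 24 h alone the Ota effect was called for 1662 of the 5313 genes (31.3%), of which 1217 were lower and 445 higher than control. At 72 h alone it was called for 1614 (30.4%), of which 717 were higher and 897 lower. A call at one time and none at the other does not by itself show a difference, but each of these genes also passed the test of the interaction. Effects of 1 direction at both times were larger at 72 h for 577 genes and smaller at 72 h for 712, of which 589 were falls. Neither effect was called for 96. With the spike-in scaling 2691 of 6432 called genes had an effect at 24 h alone and 190 at 72 h alone. There 3216 had effects of 1 direction at both times, so effects at a single time did not make up most calls. As deposited, the remaining 652 genes (12.3%) were called in opposite directions. Of these, 391 were lower at 24 h and higher at 72 h, and 261 the other way round. For 102 of the 652 both effects were at least 1 in size, 74 of them lower first.

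The treated cells moved more than the control cells between the times. Among control cells 2739 genes were called between 24 h and 72 h (25.5% of those tested, 12.2% higher and 13.3% lower at 72 h), and among Ota cells 6466 (60.3%, 37.0% higher and 23.3% lower). Of the 5313 genes with a called interaction, 3414 (64.3%) had a called time change in Ota cells and none in controls, and 952 (17.9%) in both. For 751 (14.1%) the time change was called in controls and not in Ota cells. The count of control genes was 1280 with the spike-in scaling and 5208 with array weights.

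The largest higher interactions among genes with a group mean over 7 were, with 1 exception among 10, those of genes that Ota cells held far below control at 24 h and whose effect at 72 h did not pass the test. CTPS1, which encodes a CTP synthase of pyrimidine supply, read 9.73, 9.72 and 9.78 on the control and 2.74, 3.04 and 5.03 on the Ota arrays at 24 h. At 72 h it read 8.38, 8.37 and 8.33 in control and 8.15, 8.08 and 8.54 in Ota cells. Its Ota effect went from -6.14 to -0.11, an interaction of 6.04 ± 0.63 (limma adjusted p = 2.9e-05), and the groups overlapped at 72 h alone. NUP85, a nucleoporin, was also far below control at 24 h, with 9.87, 10.09 and 9.85 against 4.29, 3.79 and 6.39 at 24 h. At 72 h control arrays gave 8.22, 8.44 and 8.29 and Ota arrays 9.15, 8.74 and 9.33, for an interaction of 5.87 ± 0.70 (limma adjusted p = 6.3e-05). Its Ota arrays lay above control at 72 h without overlap, but the effect of 0.76 did not pass (limma adjusted p = 0.21). On the 24 h Ota arrays, replicate 3 lay above the other 2 in both genes. CARD10 (5.50 ± 0.76), a scaffold of NF-kB signalling, LSM6 (5.34 ± 0.57), part of an RNA decay and splicing ring, and SPC25 (5.11 ± 0.63), a kinetochore gene, followed. PUM3 (5.05 ± 0.65), CDCA7 (5.02 ± 0.71), the clamp loader gene RFC3 (4.84 ± 0.65) and TMEM70 (4.83 ± 0.84), an assembly factor of the mitochondrial ATP synthase, completed the largest together with TM4SF1 (5.08 ± 0.45). For CTPS1, CARD10, LSM6 and PUM3 the mean at 24 h with Ota, between 3.52 and 3.84, was under the filter value of 4, so the size of these differences rests on near-background values.

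TM4SF1, which encodes a membrane protein of the tetraspanin kind, was the exception among these 10, with called effects of opposite direction. Its values were 11.68, 11.16 and 11.55 in control and 9.96, 9.27 and 10.50 in Ota cells at 24 h, and 9.03, 8.76 and 8.80 against 12.45, 11.83 and 12.90 at 72 h. The Ota effect turned from -1.55 ± 0.32 to 3.53 ± 0.32. Control and Ota arrays did not overlap at either time, and controls fell by 2.60 between the times while Ota cells rose by 2.48.

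The largest lower interactions belonged to 10 genes with Ota effects between -1.25 and 1.06 at 24 h and between -6.03 and -4.10 at 72 h. ALDH1L2, a mitochondrial folate enzyme and ATF4 target, read 4.42, 3.24 and 4.28 in control and 5.55, 5.31 and 4.27 in Ota cells at 24 h. At 72 h it read 8.43, 8.32 and 8.78 in control and 4.19, 3.67 and 3.27 in Ota cells, an interaction of -5.86 ± 0.53 (limma adjusted p = 1.4e-05). Here the control moved: it rose by 4.53 ± 0.38, and the Ota cells fell by 1.33. Its effect at 24 h was 1.06, and -0.79 with the spike-in scaling, where it did not pass. The control values of 24 h and the Ota values of 72 h lay near or under the filter value of 4. The sizes for ALDH1L2 thus rest on near-background values. NDUFB10, a subunit of respiratory complex I, showed the opposite arrangement, with 10.51, 10.72 and 10.62 in control and 10.64, 11.34 and 10.29 in Ota cells at 24 h. Its controls stayed at 10.20, 10.37 and 10.22 at 72 h while the Ota arrays read 5.23, 6.40 and 5.17 (interaction -4.80 ± 0.45, limma adjusted p = 1.6e-05). KDELR3 (-5.24 ± 1.15), which returns proteins to the endoplasmic reticulum, the receptor gene GPR160 (-5.10 ± 0.46), GCAT (-5.06 ± 0.32), an enzyme of threonine breakdown, and TMEM256 (-5.02 ± 0.70) were also among the 10. FOXP2 (-4.91 ± 0.49), a transcription factor, the peptide hormone gene SPX (-4.78 ± 0.34), the lipid phosphatase gene PLPP5 (-4.70 ± 0.37) and LOX (-4.66 ± 0.35), which cross-links collagen, were the others. KDELR3 was the least uniform, with 5.98, 7.66 and 3.04 on the Ota arrays of 72 h.

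**Figure D2:**
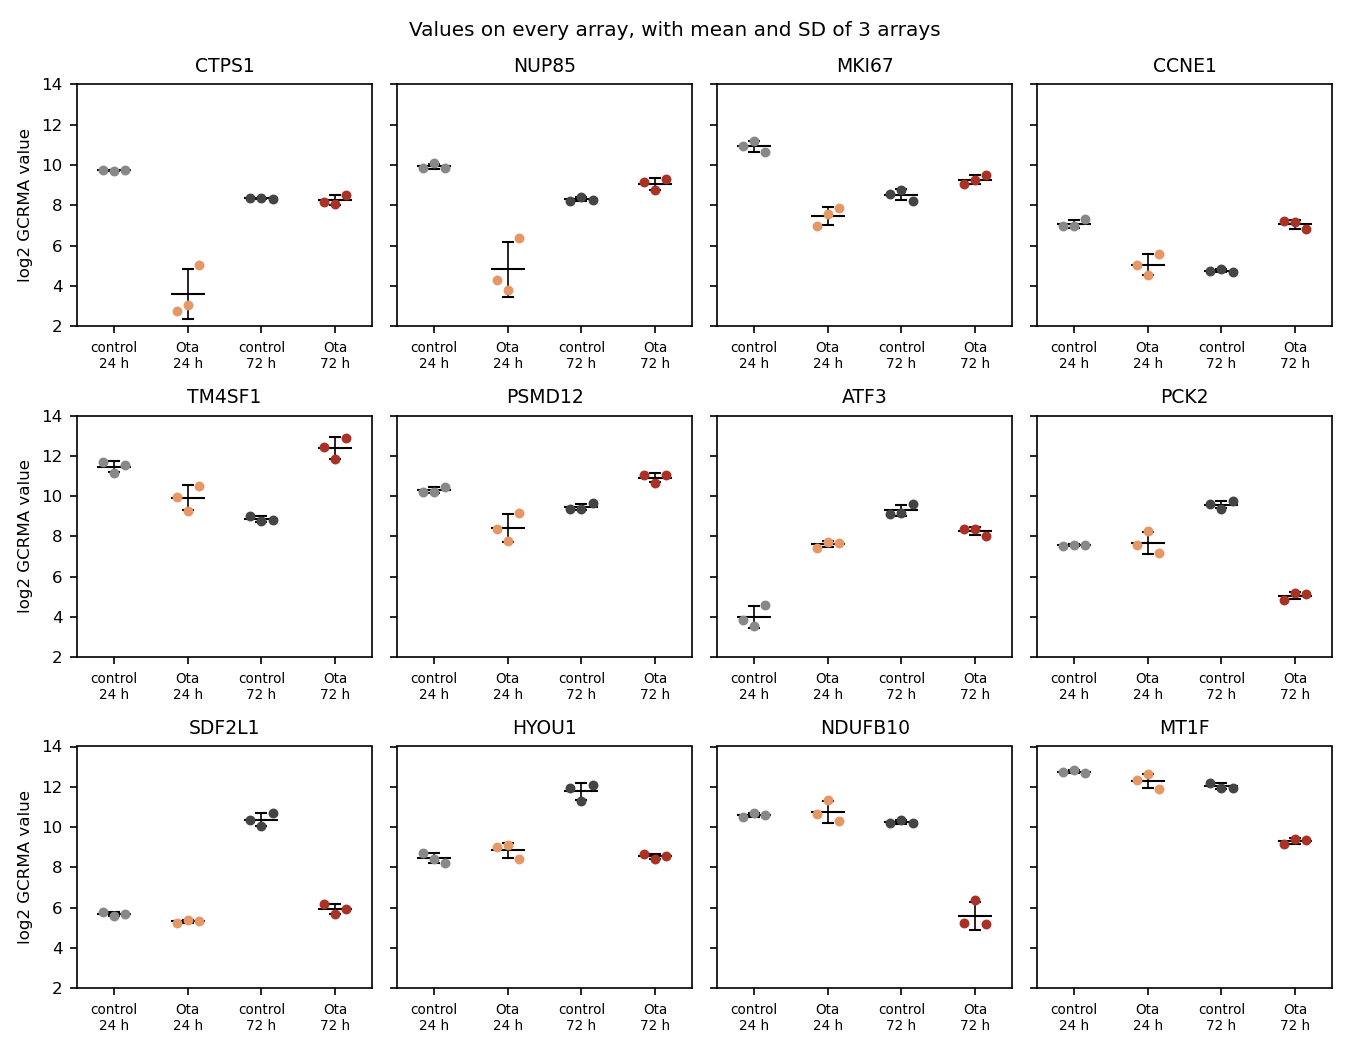
Log2 GCRMA values of 12 genes on every array, 3 arrays for each of control 24 h, Ota 24 h, control 72 h and Ota 72 h; the black line and bars are the mean and SD of 3 arrays. CTPS1 and NUP85 are low in Ota cells at 24 h alone, NDUFB10 and MT1F in Ota cells at 72 h alone, and SDF2L1 and HYOU1 are high in control cells at 72 h alone.

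Genes with opposite effects at the 2 times were led by POLQ, a DNA polymerase of end joining. It read 7.00, 6.45 and 6.95 in control and 2.89, 2.96 and 3.22 in Ota cells at 24 h. At 72 h the order was turned, with 3.60, 3.69 and 4.16 in control and 6.73, 6.31 and 7.17 in Ota cells. The effects were -3.78 and 2.92 and the interaction 6.70 ± 0.34 (limma adjusted p = 7.5e-07), with groups apart at both times. All 3 Ota values of 24 h and 2 of the 3 control values of 72 h were under the filter value of 4, so these sizes rest on near-background values. FOSL2 (-2.34 to 2.14), a subunit of the transcription factor AP-1, CCNE1 (-2.03 to 2.31), the cyclin of S phase entry, PNP (-2.34 to 1.90), a purine salvage enzyme, C2CD3 (-1.87 to 2.26), a centriole gene, and GBP1 (-1.87 to 2.21), an interferon-induced GTPase, went the same way. Under all 3 other scalings these 6 genes had a negative effect at 24 h and a positive one at 72 h, and the effect of PNP at 72 h did not pass with the spike-in scaling (1.01, limma adjusted p = 0.066).

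The reverse order, higher at 24 h and lower at 72 h, was led by SCG5 (1.81 to -2.33), a chaperone of hormone processing, NEURL3 (2.05 to -1.69), a ubiquitin ligase, and IL32 (1.50 to -2.30), a cytokine gene. ERO1B (2.06 to -1.53), an oxidase of the endoplasmic reticulum, ZHX2 (1.48 to -1.75), a repressor, and WARS1 (1.45 to -1.64), the cytosolic tryptophanyl-tRNA synthetase, completed it. IL32 read 9.30, 8.67 and 9.06 in control against 10.65, 10.65 and 10.24 in Ota cells at 24 h, and 8.88, 8.30 and 9.27 against 6.05, 6.99 and 6.51 at 72 h. In SCG5, NEURL3, ERO1B and WARS1 the controls rose between the times, by 3.97, 2.93, 4.51 and 2.40. With the spike-in scaling the 24 h effects of these 6 genes lay between -0.40 and 0.21 and none passed, while their interactions stayed past the threshold, and 17 genes in all had this order, against 261 as deposited and 557 with centring.

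Gene lists that describe cell functions were set against the background of all genes. Higher interactions made up the larger share of the mitosis, DNA replication, heat shock, proteasome and ribosome biogenesis lists, and lower ones that of ATF4 targets, endoplasmic reticulum chaperones, metallothioneins, interferon-stimulated genes, the cytosolic ribosome and the respiratory chain. These are counts of members beside the 29.6% and 19.9% of all genes, and no list was tested as a whole.

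**Figure D3:**
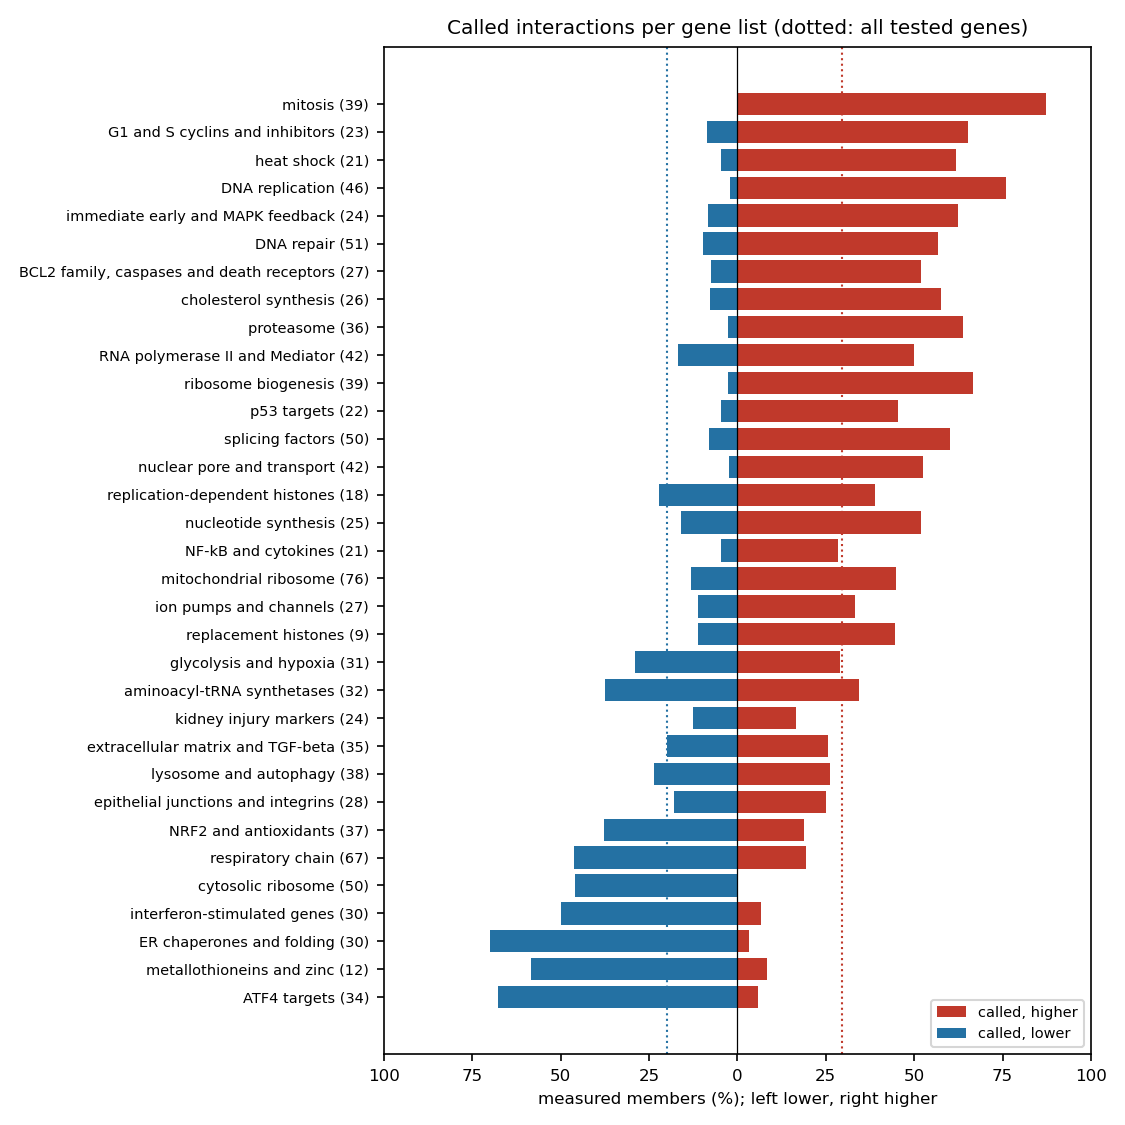
Share of measured members of each of 33 gene lists with a called higher (red, right) or lower (blue, left) interaction, in percent; numbers in brackets are measured members and dotted lines the 29.6% and 19.9% of all tested genes. Lists are ordered by their median interaction, from ATF4 targets at -1.87 to mitosis at 1.61.

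Genes of cell division mostly had a higher interaction. Of 39 mitosis genes, all measured, 34 had a higher interaction and 0 a lower one by limma (35 and 0 at an unadjusted p under 0.05), with a median of 1.61. The median Ota effect went from -0.55 at 24 h, with 21 members lower (40.5% of all genes were) and 3 higher (20.8% of all genes), to 0.93 at 72 h, with 25 higher (24.8%) and 4 lower (35.2%). With centring the 24 h median was 0.01, and with the spike-in scaling the 72 h median was 0.04 with 8 higher and 8 lower. The time course of the controls entered this difference: 38 of the 39 fell in control cells from 24 h to 72 h (13.3% of all genes), with a median of -1.85. In Ota cells 11 rose (37.0% of all genes), 12 fell (23.3%) and the median was -0.11. MKI67, the proliferation marker, read 10.95, 11.19 and 10.65 in control and 6.97, 7.55 and 7.87 in Ota cells at 24 h, and 8.59, 8.75 and 8.22 against 9.07, 9.24 and 9.52 at 72 h. Its effect went from -3.47 to 0.75, an interaction of 4.22 ± 0.34 (limma adjusted p = 8.6e-06), and the groups were apart at both times. The spike-in scaling lowers effects at 72 h by 0.89, which is more than the 0.75 of MKI67. CCNB1, the cyclin of mitotic entry, followed at 4.15 ± 0.43, with a 72 h effect of 0.25 that did not pass. All 8 genes that the list groups under chromosomes had a higher interaction, as had 12 of 13 mitotic kinases and cyclins and 10 of 13 kinetochore and spindle genes.

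Of 46 measured DNA replication genes 35 had a higher and 1 a lower interaction, with a median of 1.35. In control cells 35 fell between the times (13.3% of all genes). The median Ota effect went from -0.86 at 24 h, with 25 lower (40.5% of all genes) and 3 higher (20.8%), to 0.67 at 72 h, with 23 higher (24.8%) and 7 lower (35.2%). With the spike-in scaling the 72 h median was -0.22, with 6 higher and 17 lower. CDC45, part of the replicative helicase, read 7.98, 8.21 and 8.27 against 5.96, 6.53 and 6.39 at 24 h, and 5.92, 6.01 and 5.98 against 7.70, 8.01 and 8.24 at 72 h, so that Ota cells at 72 h stood where control cells had been at 24 h (interaction 3.88 ± 0.26, limma adjusted p = 4.2e-06). CDC7, the kinase that fires origins, came back to control instead (-4.73 to -0.02). By role, 13 of 15 origin licensing, 9 of 10 firing and 13 of 21 fork genes were higher. POLD2, a subunit of polymerase delta, was the exception (-1.24 ± 0.29), but not with the spike-in scaling (-0.28, limma adjusted p = 0.61).

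Cyclins and factors of the G1 to S transition were higher for 15 of 23 members and lower for 2, with a median of 1.58. CCNE1 was named above. E2F7 (4.04 ± 0.64), an E2F repressor of the cell cycle, and CDK2 (3.72 ± 0.40), the kinase partner of cyclin E, had been lower at 24 h (-3.34 and -3.24), and their 72 h effects did not pass. Of 10 cyclins and kinases 8 were higher, whereas the 5 measured inhibitors split 2 and 2. The inhibitor gene CDKN1C had a lower interaction (-1.47 ± 0.52), a call that ended with the spike-in scaling (-0.50, limma adjusted p = 0.39) and on leaving out any of 9 of the 12 arrays (limma adjusted p up to 0.085, without control replicate 2 of 72 h).

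Nucleotide synthesis and DNA repair genes were mostly higher as well. Of 25 nucleotide genes 13 were higher and 4 lower. UMPS (4.58 ± 0.74), which makes UMP, returned like CTPS1 from -5.02 to -0.44, while APRT, the adenine salvage enzyme, went from 0.89 to -2.10 (interaction -2.99 ± 0.40). The spike-in scaling lowers the 24 h effect of APRT by 1.85, more than its size. Of 51 DNA repair genes 29 were higher and 5 lower, and the lower count was 3 without Ota replicate 3 of 72 h, control replicate 1 of 24 h or control replicate 1 of 72 h. NEIL3 (3.97 ± 0.38), a DNA glycosylase, CHEK1 (3.46 ± 0.35), the checkpoint kinase, and MRE11 (3.40 ± 0.49), a nuclease of break repair, were higher. NEIL3 and CHEK1 still lay under control at 72 h (-0.95 and -0.99). ERCC1, an excision repair gene, was lower (-2.47 ± 0.58), from -0.64 at 24 h to -3.11 at 72 h.

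ATF4 targets went the other way. Of 34 measured of 37 listed, 23 had a lower and 2 a higher interaction, with a median of -1.87, the lowest of the 33 lists. At 24 h 8 were higher and 13 lower with Ota, with a median close to 0, shares close to the 20.8% and 40.5% of all genes. At 72 h 2 were higher (24.8% of all genes) and 28 lower (35.2%), with a median of -1.76. In control cells 32 of the 34 rose from 24 h to 72 h (12.2% of all genes), with a median of 1.99. In Ota cells 20 rose (37.0%) and 9 fell (23.3%), with a median of 0.62. With the spike-in scaling 16 were lower and 3 higher. By role, 9 of 12 enzymes, 4 of 6 transporters and 4 of 6 transcription factors were lower.

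ATF3, a stress-induced transcription factor, read 3.86, 3.56 and 4.60 in control and 7.44, 7.72 and 7.69 in Ota cells at 24 h. At 72 h it read 9.10, 9.17 and 9.61 in control and 8.37, 8.38 and 8.02 in Ota cells. The effect turned from 3.61 to -1.03, an interaction of -4.64 ± 0.35 (limma adjusted p = 6.3e-06). Ota cells thus stood between the 2 control groups at both times. PCK2, the mitochondrial enzyme that makes phosphoenolpyruvate, gave 7.51, 7.58 and 7.59 against 7.59, 8.28 and 7.19 at 24 h and 9.62, 9.37 and 9.75 against 4.86, 5.18 and 5.14 at 72 h. Its controls rose by 2.02 and its Ota cells fell by 2.63 (interaction -4.65 ± 0.33, limma adjusted p = 4.9e-06). CEBPB, a leucine zipper factor, was higher (1.04 ± 0.37), but not with centring (0.76, limma adjusted p = 0.072) nor on leaving out any of 7 of the 12 arrays (limma adjusted p up to 0.085, without Ota replicate 3 of 72 h).

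The amino acid response element, the sequence that ATF4 binds with its partners, was looked for in the 250 bases upstream of the RefSeq start (GRCh38.p14) as TGATGNAAN on both strands. It occurred in 4 of the 27 measured targets whose promoter was listed (14.8%), against 3.18% of 27305 promoters and 1.38% of the 8890 tested genes with a promoter. The list was chosen as targets of ATF4, so a share above that of all genes is in part built in. All 4 had a lower interaction, as had 17 of the 27. They are shown because they carry the element that defines the pathway, 5' to 3' on the gene's strand, with the match in capitals; in CHAC1 and HERPUD1 it lies on the opposite strand.
ATF3 (chr1:212565204-212565236, + strand): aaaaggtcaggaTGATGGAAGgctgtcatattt
ASNS (chr7:97872456-97872488, - strand): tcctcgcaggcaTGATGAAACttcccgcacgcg
CHAC1 (chr15:40953249-40953281, + strand): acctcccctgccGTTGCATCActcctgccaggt
HERPUD1 (chr16:56931953-56931985, + strand): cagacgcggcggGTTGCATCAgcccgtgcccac
ASNS, which makes asparagine, stood at 8.82 ± 0.20 in control and 9.73 ± 0.51 in Ota cells at 24 h and at 11.57 ± 0.12 and 8.89 ± 0.35 at 72 h (interaction -3.59 ± 0.35). CHAC1, which degrades glutathione, stood at 3.30 ± 0.40 and 2.82 ± 0.43, then at 6.36 ± 0.21 and 2.75 ± 0.50 (-3.13 ± 0.41). All its group means but that of control 72 h were under the value of 4 used as filter, so its size rests on near-background values. HERPUD1, a gene of the degradation of misfolded proteins, stood at 10.42 ± 0.20 and 10.66 ± 0.45, then at 13.57 ± 0.15 and 11.49 ± 0.28 (-2.32 ± 0.32). In each of these 3 the control cells of 72 h were the highest group and did not overlap any other. A match in these windows is a description and no evidence of binding.

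Chaperones and folding enzymes of the endoplasmic reticulum were lower for 21 of 30 measured members and higher for 1, with a median of -1.07. At 24 h 13 were higher (20.8% of all genes) and 3 lower (40.5%) with Ota, and at 72 h 1 was higher (24.8%) and 21 lower (35.2%). In control cells 26 rose between the times (12.2% of all genes, list median 1.35). In Ota cells 16 rose (37.0%) and 4 fell (23.3%), with a list median of 0.49. With the spike-in scaling the lower count was 8, the higher count 1 and the median -0.11. SDF2L1, a cofactor of the chaperone BiP, read 5.78, 5.59 and 5.69 against 5.25, 5.41 and 5.32 at 24 h, and 10.34, 10.04 and 10.68 against 6.17, 5.67 and 5.95 at 72 h. Its interaction was -4.07 ± 0.26 (limma adjusted p = 3.7e-06), and the control cells rose by 4.67 where the Ota cells rose by 0.60. HYOU1, a large chaperone, gave 8.71, 8.40 and 8.23 against 9.01, 9.09 and 8.42 at 24 h, and 11.94, 11.31 and 12.11 against 8.66, 8.43 and 8.58 at 72 h (-3.62 ± 0.33, limma adjusted p = 1.4e-05). Both genes were high in the control cells of 72 h alone. All 6 measured genes of disulfide formation were lower, with ERO1B described above. DERL1, a channel of protein export, was the exception (0.48 ± 0.18), and that call ended with quantile normalization (0.20, limma adjusted p = 0.59), with centring (0.20, limma adjusted p = 0.51) and on leaving out any of 10 arrays (limma adjusted p up to 0.10, without Ota replicate 1 of 24 h).

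The endoplasmic reticulum stress element, CCAAT and CCACG set 9 bases apart, occurred on either strand upstream of 7 of the 27 measured members with a listed promoter (25.9%). It occurred in 0.0806% of all 27305 promoters and 0.146% of the tested genes, and the list is in part made of genes for which the element is known. It was found in 4 of the 19 members with a lower interaction that had a promoter, shown here with the match in capitals, and in HSPA5, CANX and XBP1, whose interaction was not called. In CALR, CRELD2 and ERO1B the match lies on the opposite strand.
HSP90B1 (chr12:103930204-103930246, + strand): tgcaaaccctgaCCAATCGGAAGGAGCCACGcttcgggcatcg
CALR (chr19:12938372-12938414, + strand): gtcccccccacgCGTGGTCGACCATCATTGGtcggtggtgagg
CRELD2 (chr22:49918542-49918584, + strand): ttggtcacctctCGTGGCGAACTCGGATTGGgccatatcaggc
ERO1B (chr1:236282171-236282208, - strand): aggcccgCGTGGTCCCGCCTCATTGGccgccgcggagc
HSPA5 (chr9:125241379-125241421, - strand): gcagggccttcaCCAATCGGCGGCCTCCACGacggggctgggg
The interaction was -3.22 ± 0.36 for CRELD2, an isomerase gene, -2.11 ± 0.22 for HSP90B1, the HSP90 of this compartment, and -1.10 ± 0.28 for CALR, a lectin chaperone. HSPA5, which encodes BiP, was at 12.31 ± 0.25 in control and 11.28 ± 0.10 in Ota cells at 24 h and at 14.86 ± 0.07 and 13.67 ± 0.21 at 72 h. Its effect was -1.03 and -1.19, with an interaction of -0.15 ± 0.23 (limma adjusted p = 0.60). Its control cells rose by 2.54 between the times, and those of HSP90B1 by 2.09.

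Aminoacyl-tRNA synthetases split by compartment. Of 17 cytosolic enzymes, several of them ATF4 targets, 10 were lower and 3 higher, with a median of -0.75. Of 15 mitochondrial ones 8 were higher and 2 lower, with a median of 0.93. WARS1 (-3.09 ± 0.25) was named above, and the mitochondrial LARS2 (3.70 ± 0.74) and HARS2 (2.83 ± 0.27) had fallen at 24 h. HARS2 read 7.78, 8.16 and 7.79 against 3.69, 3.82 and 4.36 at 24 h and 7.68, 7.96 and 7.92 against 6.71, 6.90 and 6.59 at 72 h, so it was below control at both times and the gap narrowed. With the spike-in scaling 16 of the 32 were higher and 1 lower.

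Genes of RNA and ribosome production tended to higher interactions. Of 39 ribosome biogenesis genes 26 were higher and 1 lower (median 0.86). Unlike the division genes, 1 fell (13.3% of all genes) and 2 rose (12.2%) in control cells, while 27 rose in Ota cells (37.0%). BYSL, needed for the small subunit, read 8.38, 8.04 and 8.47 against 6.76, 6.39 and 7.11 at 24 h and 8.07, 7.97 and 8.16 against 9.59, 9.35 and 9.69 at 72 h (interaction 3.02 ± 0.27, limma adjusted p = 1.3e-05). It was below control at 24 h and above it at 72 h with no overlap, though the 72 h effect did not pass with the spike-in scaling (0.59, limma adjusted p = 0.12). UTP15 (3.40 ± 0.38), a processome gene, and POLR1C (3.11 ± 0.67), a subunit of RNA polymerases I and III, had been lower at 24 h and their 72 h effects did not pass. NHP2, a protein of the pseudouridylation complex, was lower (-1.95 ± 0.26) but did not pass with the spike-in scaling (-0.98, limma adjusted p = 0.062).

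Splicing factors were higher for 30 of 50 members and lower for 4 (median 0.79). PRPF3 (4.35 ± 0.36) and SNRPD1 (3.51 ± 0.25), both proteins of spliceosomal particles, and SRSF1 (3.28 ± 0.23), an SR protein measured by 7 probe sets of 1 sign, were lower at 24 h (-3.32, -2.85 and -2.92). The kinase CLK4, which phosphorylates SR proteins, went from 1.88 to -0.03 (-1.91 ± 0.25), or -0.95 with the spike-in scaling (limma adjusted p = 0.054). Nuclear pore and transport genes were higher for 22 of 42 and lower for 1, with the exportin gene XPOT as the exception (-0.84 ± 0.25), which turned to 0.12 with the spike-in scaling (limma adjusted p = 0.82). NUP98 (-1.60 to 1.50) and NUP155 (-1.19 to 1.55), nucleoporins, crossed over, but their 72 h effects of 0.61 and 0.66 did not pass with that scaling. Of 42 genes of RNA polymerase II, Mediator and elongation 21 were higher and 7 lower. Mediator, the bridge between factors and polymerase, was higher for 13 of 23 subunits, such as MED21 (3.25 ± 0.50) and MED4 (3.06 ± 0.51), whereas the polymerase subunits POLR2D (3.54 ± 0.53) and POLR2G (-2.22 ± 0.31) went opposite ways.

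The 2 ribosomes of the cell differed in the direction of their genes. Of 50 measured genes of the cytosolic ribosome 23 were lower and 0 higher by limma (25 and 0 at an unadjusted p under 0.05), with a small median of -0.43. Their balance turned with the spike-in scaling, to 0 lower and 9 higher, while centring gave 37 lower and quantile normalization 13. It also rested on single arrays, with 12 lower without Ota replicate 1 of 72 h, 13 without Ota replicate 3 of 72 h and 15 without control replicate 2 or 3 of 72 h. RPL36 (-1.78 ± 0.32), RPL14 (-1.55 ± 0.20) and RPL3 (-1.33 ± 0.27) had the largest values, and none of the 3 passed with the spike-in scaling. Of 76 mitochondrial ribosome genes 34 were higher and 10 lower (median 0.46), after 53 had been lower at 24 h (40.5% of all genes were). MRPS17 (3.65 ± 0.42), MRPL50 (3.61 ± 0.54) and MRPL27 (3.28 ± 0.38) had been lower at 24 h (-2.82, -3.07 and -3.33), and the effects of the last 2 at 72 h did not pass. MRPS16 was lower (-3.00 ± 0.24), but its other probe set had the opposite sign.

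Proteasome genes were higher for 23 of 36 and lower for 1, with a median of 0.92. PSMD12, a subunit of the regulatory particle, read 10.21, 10.22 and 10.46 against 8.36, 7.77 and 9.14 at 24 h and 9.37, 9.37 and 9.65 against 11.04, 10.66 and 11.05 at 72 h. Its effect turned from -1.87 to 1.45 (interaction 3.32 ± 0.39, limma adjusted p = 6.1e-05), and the groups did not overlap at either time. PSMD14 (2.18 ± 0.19), the deubiquitinase of that particle, and PSMD11 (1.91 ± 0.19) crossed over too, with 24 h effects of -0.39 and -0.58 that centring moved to 0.17 and -0.01. Of the 3 genes, PSMD14 alone kept a called 72 h effect with the spike-in scaling (0.89). Of 15 regulatory particle genes 11 were higher, and of 13 core genes 7. PSMB4, a core subunit, was lower (-1.05 ± 0.25), but not with the spike-in scaling (-0.08, limma adjusted p = 0.87).

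Heat shock genes were higher for 13 of 21 and lower for 1, with a median of 1.37. Of 14 inducible chaperones and cochaperones 10 were higher. DNAJA1, a partner of HSP70, read 11.81, 11.60 and 11.88 against 11.56, 10.70 and 12.31 at 24 h and 11.59, 11.74 and 11.61 against 13.82, 13.65 and 13.62 at 72 h. The groups overlapped at 24 h and lay apart at 72 h (2.29 ± 0.43, limma adjusted p = 0.0011). STIP1 (3.08 ± 0.23), which links HSP70 and HSP90, turned from -1.70 to 1.38, or to 0.49 with the spike-in scaling (limma adjusted p = 0.14), and CHORDC1 (3.55 ± 0.58), an HSP90 cochaperone, returned from -3.24 to 0.31. TRAP1, the mitochondrial HSP90, was lower (-1.03 ± 0.22), but not with the spike-in scaling (-0.07, limma adjusted p = 0.87).

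**Figure D4:**
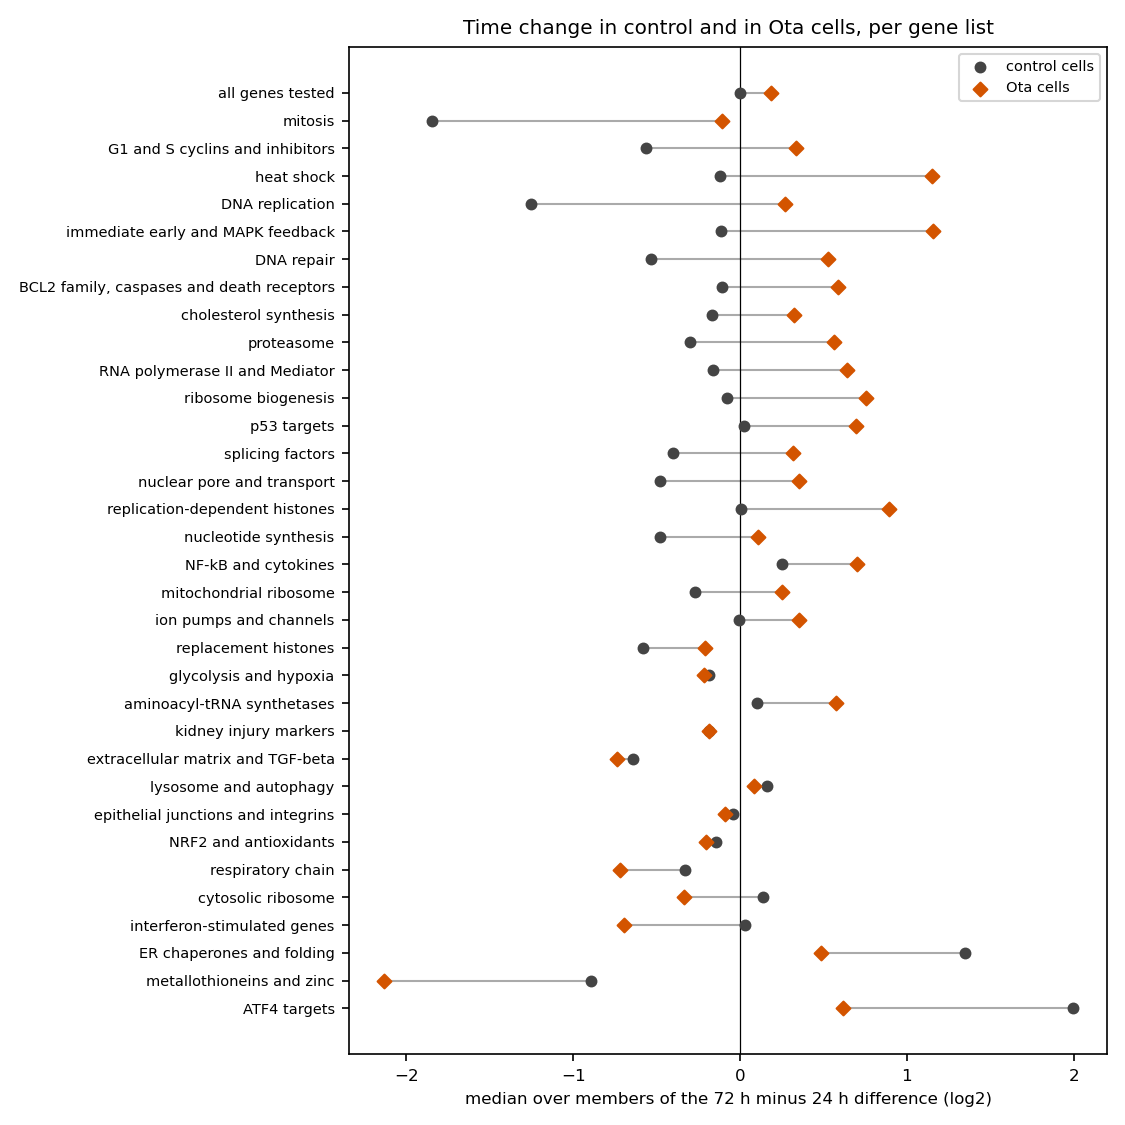
Median over the measured members of each gene list of the 72 h minus 24 h difference (log2) in control cells (grey circles) and Ota cells (orange diamonds); the distance between the marks shows how the arms differ. The median of mitosis genes was -1.85 in control cells and -0.11 in Ota cells, where 12 members fell and 11 rose. That of ATF4 targets was 1.99 in control cells and 0.62 in Ota cells.

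Metabolic lists went different ways. Cholesterol and fatty acid synthesis genes were higher for 15 of 26 and lower for 2. NSDHL, an enzyme of sterol synthesis, turned from -2.73 to 1.23 (interaction 3.96 ± 0.36), or to 0.34 with the spike-in scaling (limma adjusted p = 0.39), and STARD4 (3.28 ± 0.67), a carrier of cholesterol, had an effect of -2.58 at 24 h. TM7SF2, a sterol reductase, was lower (-4.40 ± 0.78), with 2.27, 4.78 and 2.57 on the Ota arrays of 72 h against 8.32, 7.65 and 7.96 in control. Most of these Ota values were under the filter value of 4, so this size rests on near-background values. Respiratory chain genes were lower for 31 of 67 and higher for 13 (median -0.40). Between the times 42 of them fell in Ota cells (23.3% of all genes) against 21 in control cells (13.3%). Their balance turned with the spike-in scaling to 7 lower and 22 higher, and the higher count was 3 with centring. Omitting 1 array of 72 h gave 8 higher (replicate 3 of Ota, or replicate 2 of control) or 7 (replicate 3 of control), and omitting control replicate 1 of 24 h gave 7. NDUFB10 was described above. NDUFA11 (-2.51 ± 0.19), also of complex I, and ATP5MC2 (-2.47 ± 0.23), of the ATP synthase ring, were at control or slightly above at 24 h (0.38 and 0.26) and below it at 72 h (-2.13 and -2.22), whereas NDUFA8 turned from -0.39 to 1.00 (1.39 ± 0.21). Centring takes the arrays' own Ota difference of -0.56 off the 24 h effect of NDUFA8, more than its size. The spike-in scaling lowers its 72 h effect by 0.89.

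Metallothioneins, which bind zinc and other metals, were lower for all 7 measured genes, with a median of -1.63. They fell between the times in both arms, by a median of -1.03 in control and -2.73 in Ota cells. MT1F read 12.72, 12.85 and 12.69 against 12.34, 12.62 and 11.92 at 24 h and 12.19, 11.94 and 11.95 against 9.16, 9.41 and 9.35 at 72 h (interaction -2.26 ± 0.25, limma adjusted p = 4.0e-05). The Ota arrays of 72 h lay far under all others. MT1G (-1.84 ± 0.25) and MT1X (-1.64 ± 0.30) followed, and MT1X did not pass with the spike-in scaling (-0.68, limma adjusted p = 0.14), which left 2 of the list of 12 metallothionein and zinc genes lower. The probe sets of this family can share targets, so its members are not independent. The zinc importer SLC39A10 was higher (0.65 ± 0.19), but not with centring (0.37, limma adjusted p = 0.16).

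Genes of the NRF2 and antioxidant list were lower for 14 of 37 and higher for 7, and with the spike-in scaling this turned to 4 and 17. NQO1, a quinone reductase, went from 0.66 to -2.48 (-3.14 ± 0.48), while the aldo-keto reductases AKR1C3 (2.55 ± 0.37) and AKR1C1 (2.43 ± 0.35), close paralogs, had fallen at 24 h and were near control at 72 h. Glycolysis and hypoxia genes were even, 9 higher and 9 lower of 31 (16 and 1 with the spike-in scaling, 5 and 13 with centring, 9 and 12 after quantile normalization), and the lower count was 5 without control replicate 1 and 4 without control replicate 2 of 72 h. MXI1, a transcriptional repressor, was lower (-2.84 ± 0.39), as was the phosphofructokinase gene PFKL (-1.70 ± 0.36), which did not pass with the spike-in scaling (-0.74, limma adjusted p = 0.073). ENO2, an enolase, was higher (1.64 ± 0.35).

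Of 24 immediate early and MAPK feedback genes the interaction was higher for 15 and lower for 2 (median 1.23). At 24 h 12 were lower with Ota (40.5% of all genes) and 5 higher, the latter share being the 20.8% of all genes. Between the times 16 rose in Ota cells (37.0%). DUSP5, a phosphatase of ERK, turned from -1.75 to 1.34 (3.09 ± 0.63), and SPRED2 (3.18 ± 0.61), an inhibitor of the same pathway, came back from -4.02 to -0.85. The spike-in scaling lowers the 72 h effect of DUSP5 by 0.89, most of its size. FOSL1 (2.50 ± 0.64) rested on low values, with group means between 2.60 and 3.98. The growth factor gene EREG was lower (-1.58 ± 0.33), or -0.61 with the spike-in scaling (limma adjusted p = 0.27). NF-kB and cytokine genes were higher for 6 of 21 and lower for 1, the higher share being close to the 29.6% of all genes. IL6, a cytokine, read 3.96, 4.81 and 4.55 in Ota cells at 24 h and 6.12, 6.07 and 10.23 at 72 h against 2.39, 2.60 and 2.87 in control, for an interaction of 3.87 ± 1.20, which was 2.49 without replicate 3 of Ota 72 h. IER3 was higher (1.86 ± 0.39), and TNFAIP3, a brake of NF-kB, was lower (-1.83 ± 0.56), or -0.87 with the spike-in scaling (limma adjusted p = 0.25).

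Interferon-stimulated genes were lower for 15 of 30 and higher for 2, with a median of -0.75 (0.22 with the spike-in scaling, which left 6 lower and 7 higher). PSMB10 (-2.85 ± 0.32), a subunit of the immunoproteasome, read 4.23, 4.25 and 4.25 in Ota cells at 72 h against 7.23, 7.54 and 7.78 in control. ISG20 (-2.39 ± 0.27), an exonuclease, rose in control cells by 2.03, and IFIT2 (-2.26 ± 0.38) turned from 0.85 to -1.41. The 24 h effect of IFIT2 is smaller than the 1.85 by which the spike-in scaling lowers it. OAS3, an antiviral synthetase, was higher (1.72 ± 0.31): it fell in controls by 1.80, from 7.33, 7.00 and 7.15 to 5.27, 4.90 and 5.90, and read 7.27, 7.57 and 7.39 in Ota cells at 72 h.

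Genes of the p53 pathway and of cell death were higher more often than lower. Of 22 p53 targets 10 were higher and 1 lower (median 0.84), after 13 had been lower at 24 h (40.5% of all genes were). TIGAR, a fructose bisphosphatase, turned from -2.39 to 0.96 (3.34 ± 0.41), and FAS, a death receptor, returned from -2.84 to 0.12 (2.96 ± 0.65). The spike-in scaling lowers the 72 h effect of TIGAR by 0.89, most of its size. TP53I3, an oxidoreductase, was the exception, at -0.85 and then -4.56 (-3.71 ± 0.36), with Ota values of 2.70, 3.43 and 3.14 at 72 h against 7.58, 7.55 and 7.82. These Ota values were all under the filter value of 4, so this size rests on near-background values. Of 27 genes of the BCL2 family, caspases and death receptors 14 were higher and 2 lower. FADD (3.80 ± 0.76), the adaptor of death receptors, and TNFRSF1A (3.43 ± 0.28), a receptor of TNF, had effects of -4.06 and -3.47 at 24 h, and their 72 h effects did not pass. BCL2 itself was lower (-1.33 ± 0.34), or -0.37 with the spike-in scaling (limma adjusted p = 0.52).

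Matrix, junction and kidney injury lists held both directions. Of 35 matrix and TGF-beta genes 9 were higher and 7 lower (17 and 1 with the spike-in scaling, 5 and 7 with centring, 7 and 7 after quantile normalization), led by LOX. PLAUR (3.65 ± 0.32), the urokinase receptor, and COL1A1 (2.49 ± 0.51), a collagen, were higher, but each had another probe set of the opposite sign. Of 28 junction and integrin genes 7 were higher and 5 lower (10 and 2 with the spike-in scaling, 5 and 9 with centring, 5 and 7 after quantile normalization), and these counts rested on single arrays. The higher count was 4 without control replicate 1 of 24 h and 3 without control replicate 2 of 72 h. The lower count was 2 without Ota replicate 1 of 24 h, Ota replicate 2 of 72 h, control replicate 3 of 24 h or control replicate 1 of 72 h, and 3 without Ota replicate 1 of 72 h, control replicate 2 of 24 h or control replicate 3 of 72 h. CDH1, the cadherin of epithelial contacts, read 8.86, 8.50 and 9.06 in control and 5.92, 5.73 and 5.21 in Ota cells at 72 h, and overlapped at 24 h (interaction -2.90 ± 0.39, limma adjusted p = 1.5e-04). The kidney cadherin CDH16 (-2.98 ± 0.31) matched it, and ITGA5, an integrin, was higher (2.27 ± 0.32). Of 24 kidney injury markers 4 were higher and 3 lower (12 and 1 with the spike-in scaling, 2 and 6 with centring), 29.2% called against 49.5% of all genes, with KRT7 (-2.52 ± 0.40) and CCN1 (1.64 ± 0.47) among them. The higher count was 7 without Ota replicate 2 of 72 h, and the lower count was 5 when replicate 3 of Ota 24 h or replicate 2 of control 24 h was left out. CD44 (1.61 ± 0.34), a hyaluronan receptor, rose with Ota at both times (1.78 and 3.39), but its 8 probe sets differed in sign. Of 27 ion pump and channel genes 9 were higher and 3 lower, the higher share being close to the 29.6% of all genes. Of the 9 higher genes 6 were among the 12 genes of the proton pump. ATP6V1B2, of that pump, turned from -2.65 to 1.06 (3.71 ± 0.36), or to 0.17 with the spike-in scaling (limma adjusted p = 0.70), and the calcium pump ATP2B1 returned from -2.36 to -0.28 (2.08 ± 0.56). FXYD2, a regulator of the sodium pump, was lower (-2.20 ± 0.40) with another probe set of the opposite sign. Lysosome and autophagy genes were even, with 10 higher and 9 lower of 38 (19 and 0 with the spike-in scaling, 6 and 11 with centring, 8 and 9 after quantile normalization). NPC1 (1.77 ± 0.36), which exports cholesterol from lysosomes, was higher. GABARAP (-1.75 ± 0.18), of autophagosome formation, and GAA (-1.93 ± 0.54), the acid glucosidase, were lower, neither of them with the spike-in scaling (-0.79 and -0.97).

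The measured genes of replication-dependent histones were mostly above control at both times. Of 58 listed 18 were measured, and of these 16 were higher with Ota at 24 h (20.8% of all genes were) and 17 at 72 h (24.8%). A gene low in control cells is measured only where Ota arrays lift it over the filter value of 4, so these counts follow in part from the filter. The spike-in scaling gave 11 higher and 2 lower at 24 h, and 15 higher at 72 h. The interaction was higher for 7 and lower for 4 (5 and 6 with centring, 6 and 6 after quantile normalization, 10 and 0 with the spike-in scaling). The lower count was 2 when replicate 1 or 3 of Ota 24 h, replicate 1 of Ota 72 h, or replicate 1 or 2 of control 72 h was left out, and 6 without Ota replicate 2 of 72 h. H2BC21 was detected in Ota cells at 72 h alone, with 5.96, 6.21 and 6.44 in Ota cells and 2.19 to 2.30 on the other 9 arrays (interaction 3.88 ± 0.19, limma adjusted p = 7.5e-07). It passed the filter value of 4 through the Ota arrays of 72 h alone. The size and the p-value thus rest on near-background values with little spread. The linker histone gene H1-2 went from 1.60 to 5.26 and H2BC9 from 2.86 to 5.27. Of 7 H2B genes 5 were higher, and of 5 H2A genes 3 were lower. H3C3 was lower (-1.92 ± 0.61), or -0.96 with the spike-in scaling (limma adjusted p = 0.10), under which no member of the list was called lower. Most transcripts of these genes lack poly-A tails, and the genes are close copies, so probe sets may share targets. Of 9 replacement histones 3 were above (20.8% of all genes) and 4 below control (40.5%) at 24 h. At 72 h 5 were above (24.8%) and 3 below (35.2%), and the interaction was higher for 4 and lower for 1. H2AX turned from -2.06 to 0.61 (2.67 ± 0.23) and the linker variant H1-10 went from -3.26 to -1.74, while H2AJ was lower (-1.49 ± 0.30), or -0.53 with the spike-in scaling (limma adjusted p = 0.20). The 72 h effect of H2AX is smaller than the 0.89 by which that scaling lowers it.

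Of 557 genes called in 1 direction at both times with a size of at least 2 at each, 176 had a called interaction, and 1 had a 95% interval of the interaction within 0.5 of 0. The median SE of the interaction was 0.30 over all genes, so few intervals can be this narrow and the count of 1 does not say how many effects were alike. That gene was NPRL2, a brake on mTORC1 signalling when amino acids are short. It read 7.45, 7.27 and 7.38 against 5.18, 5.15 and 5.14 at 24 h and 8.22, 7.78 and 8.13 against 5.76, 5.65 and 5.97 at 72 h. Its effects were -2.21 and -2.25, with an interaction of -0.04 ± 0.21 as deposited and 0.92 with the spike-in scaling (limma adjusted p = 0.061).

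**Figure D5:**
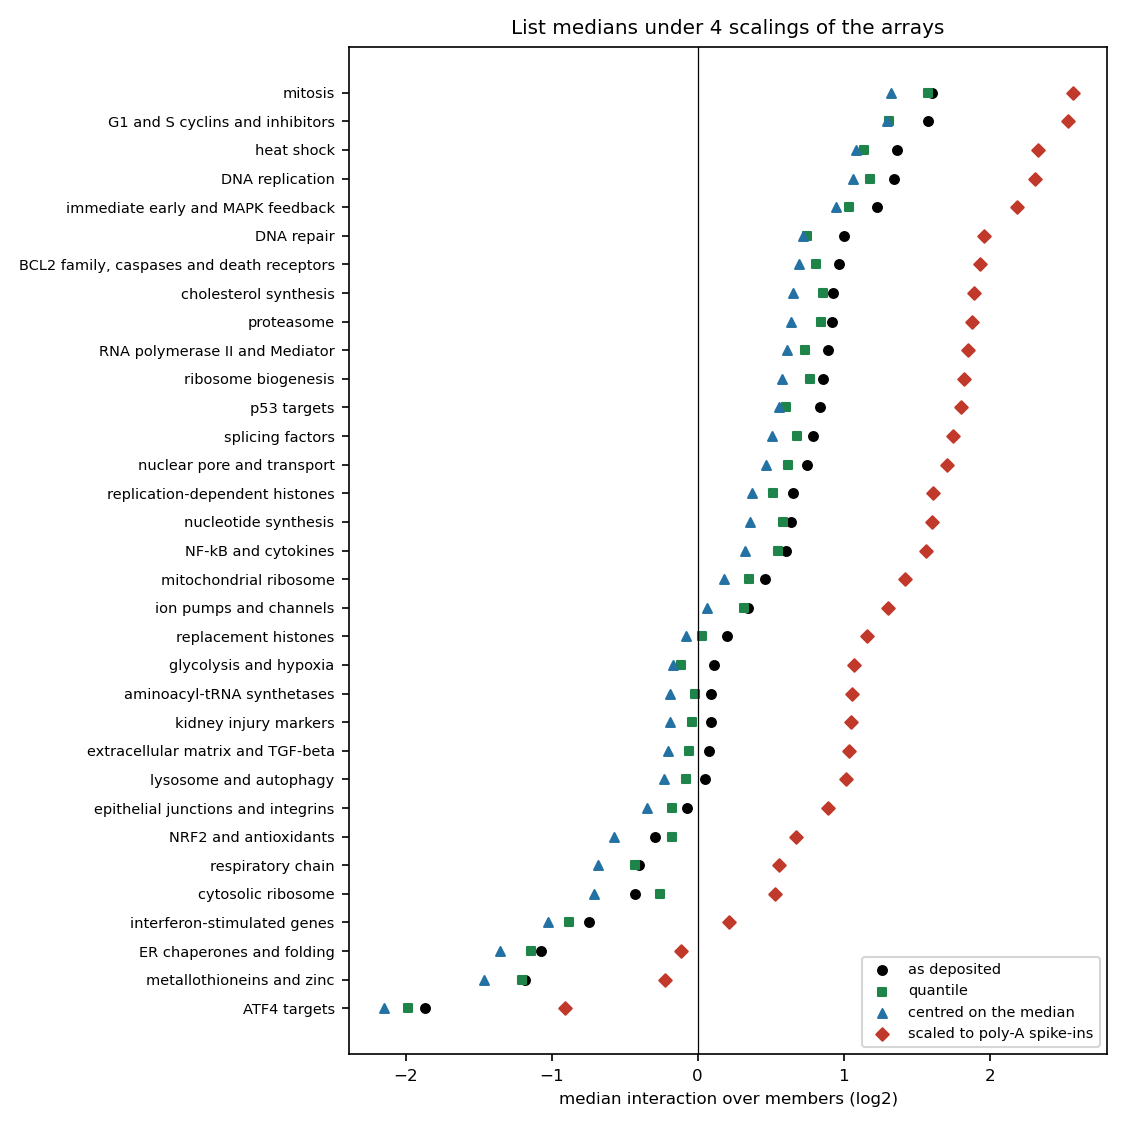
Median interaction (log2) over the measured members of each gene list as deposited (black circles), after quantile normalization (green squares), with arrays centred on their median (blue triangles) and with arrays scaled to poly-A spike-ins (red diamonds). The spike-in scaling lies to the right in every list, with mitosis at 2.57 and ATF4 targets at -0.91, and places the cytosolic ribosome (0.53) and respiratory chain (0.56) above 0.

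Mitosis genes had higher and ATF4 targets lower medians under each. Of the lists with a negative deposited median, the junction, NRF2, respiratory chain, cytosolic ribosome and interferon lists lay above 0 with the spike-in scaling, and ATF4 targets, metallothioneins and endoplasmic reticulum chaperones lay below it. With centring the medians of the replacement histone, aminoacyl-tRNA synthetase, glycolysis, matrix, kidney injury and lysosome lists, above 0 as deposited, were below 0.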

How the data were processed

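RNA of 12 HK-2 cultures was hybridized to Affymetrix arrays after labelling as biotinylated cRNA, per the labels' protocols. The authors deposited log2 values for 54675 probe sets; per the submitters' processing notes they come from GCRMA, whose version and which arrays were normalized together are not given in the sources used here. An array intensity has no read depth, so the number of arrays limits the precision. Probe sets with 1 current gene symbol (41043 matched) were kept, with 1 probe set per gene, and genes needed a value over 4 on at least 3 arrays, which left 10729. limma 3.58.1 in R 4.3.3 fitted 4 group means, with contrasts for each time, each arm and the interaction, and Benjamini-Hochberg adjustment at 0.05; the code was checked on simulated data. Alternatives were quantile normalization, median centring, poly-A spike-in scaling, other filters and probe set rules, array weights, stricter thresholds, replicate blocks and leaving out each array. The members and the 33 gene lists were chosen with earlier results of these data known, so list counts are descriptions. Named genes were the 10 largest interactions in each direction among called genes with a group mean over 7 and probe sets of 1 sign, up to 3 per list plus 1 of the other direction, 6 per order of opposite effects, and stable genes. Genes shown with a promoter motif and the markers were named outside this rule. Promoter sequences are RefSeq's (GRCh38.p14).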

Additional observations from a re-analysis of the deposited data

Results flagged for a closer look

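Effects at 24 h and 72 h differed by the test of the interaction for 5313 genes, and 652 of these had called effects of opposite direction. Among the latter, the interaction was 6.70 for POLQ, 4.49 for FOSL2, 4.34 for CCNE1, 4.25 for PNP, 4.13 for C2CD3 and 4.07 for GBP1. It was -4.14 for SCG5, -3.80 for IL32, -3.75 for NEURL3, -3.59 for ERO1B, -3.23 for ZHX2 and -3.09 for WARS1.

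Control probe sets outside the gene comparisons read higher on Ota than on control arrays. The difference was 1.85 at 24 h and 0.89 at 72 h for poly-A spike-ins, and 0.93 and 0.42 for hybridization controls. Probe sets of 18S ribosomal RNA were higher by 1.58 and 1.34.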

How the results depend on the processing

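Poly-A spike-in scaling gave 5908 higher and 524 lower interactions, 10187 calls at 24 h and 1280 in control cells over time. It ended the call of 18 of 139 named genes and turned XPOT to 0.12 (limma adjusted p = 0.82). Testing all probe sets gave 8892 interactions (5483 higher, 3409 lower), with 11734 calls at 24 h, 11407 at 72 h, 4580 in control and 11180 in Ota cells over time, from more features tested. Without probe sets marked as cross-hybridizing, MRPS16 turned to 0.016, PLAUR to -0.066 and FXYD2 to 0.67. Array weights gave 5208 calls in control cells over time. An adjusted p under 0.01 left 1400 lower interactions and 1547 control calls, and a size of at least 1 left 4040 calls at 24 h, 3994 at 72 h, 1210 in control and 3868 in Ota cells over time. Under quantile normalization 138 and under centring 136 of the 139 named genes kept their direction and side of the threshold. Except where stated, the cause of these shifts was not tested.

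Leaving out single arrays gave 4633 to 5888 interactions (2745 to 3616 higher, 1854 to 2272 lower), 5870 to 6648 calls at 24 h, 5753 to 7110 at 72 h, 1913 to 3583 in control and 5572 to 6695 in Ota cells over time. Of 139 named genes 136 stayed past the threshold in every omission or, for the stable gene, below it, and DERL1, CEBPB and CDKN1C did not. Pairs of Ota and control arrays were also correlated after each gene's group mean was subtracted, so on the deviations within groups alone. Same-numbered arrays gave 0.12, 0.23 and 0.27 at 24 h, all above the other pairs (-0.25 to 0.02). At 72 h they gave -0.05, 0.14 and 0.19, and the other pairs -0.20 to 0.08. Not every pair passed 0.1, so the numbers were not treated as pairs. A replicate block within each time gave 5553 interactions (3350 higher, 2203 lower) and a block over all arrays 5399 (3239 higher, 2160 lower).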
